A study of Mus musculus with 12 samples.

Results

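Septins and anillin are cytoskeletal genes whose proteins form filaments beneath the plasma membrane. The 8 genes described here are Anln and the septins Sept2, Sept4, Sept5, Sept7, Sept8, Sept9 and Sept11, found by their symbols among 21937 genes in a table of normalized read counts. The normalized read count is the number of reads on a gene after each library was divided by its DESeq size factor. RNA was sequenced from membranes of low density, in which myelin is concentrated, of whole brains. The mice were wild-type c57Bl6/N males of 4 ages, namely P18 and P75 (postnatal days 18 and 75) and 6 and 24 months, each represented by 3 libraries, and they differed by label in age alone. The fraction is purified by density and not by cell type, so that transcripts of neighbouring cells can be present. All 8 genes were well covered, with 438 to 17833 reads behind each value.

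Septins are GTP-binding proteins that assemble with each other into hetero-oligomers and then into filaments. By sequence they fall into subgroups named after Sept2 (with Sept4, Sept5 and Sept1), Sept6 (with Sept8, Sept10, Sept11 and Sept14), Sept7 and Sept3 (with Sept9 and Sept12), and members of different subgroups occupy different places in the oligomer. Anillin is a scaffold that links septins to actin and myosin, best known from the contractile ring of dividing cells. In mature CNS myelin, septin filaments with anillin line the innermost, non-compact layer of the sheath and help to prevent abnormal outfoldings of the myelin.

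The GTP-binding loop (P-loop) is a part of the coding sequence that all septins share, and it is shown here as a short example of how the 7 transcripts differ. The stretches are from the GENCODE M1 transcripts on NCBIM37, the assembly also called mm9, with the codons of the P-loop in capitals.
Sept2: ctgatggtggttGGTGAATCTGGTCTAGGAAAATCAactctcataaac
Sept4: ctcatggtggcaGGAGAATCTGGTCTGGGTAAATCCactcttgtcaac
Sept5: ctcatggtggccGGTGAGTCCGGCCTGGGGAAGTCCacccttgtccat
Sept7: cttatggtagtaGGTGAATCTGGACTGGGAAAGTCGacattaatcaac
Sept8: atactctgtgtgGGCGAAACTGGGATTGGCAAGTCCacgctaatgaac
Sept11: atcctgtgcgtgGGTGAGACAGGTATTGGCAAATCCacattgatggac
Sept9: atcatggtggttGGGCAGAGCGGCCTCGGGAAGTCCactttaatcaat
Within these 24 bases, pairs of the 7 septins were identical at 13 (Sept2 and Sept9) to 20 (Sept2 and Sept4, Sept2 and Sept7) positions. In each gene an exon junction lies within the stretch printed, between exons 3 and 4 in Sept2, Sept4, Sept5 and Sept7, exons 2 and 3 in Sept8 and Sept11, and exons 4 and 5 in Sept9. Over the aligned coding sequences the identity ran from 60.7% (Sept7 and Sept9) to 75.7% (Sept4 and Sept5). No run of 50 bases of the longest coding transcript was shared with a transcript of another gene for Anln and 6 of the septins. The exception was Sept5 (chr16:18621904-18630004, minus strand), of which 26.1% of such runs were shared with Gp1bb, a platelet glycoprotein gene whose exons overlap those of Sept5 by 593 bases on the same strand. Sept2, with a transcript of 3779 bases, has 2 intron-less partial copies elsewhere in NCBIM37. They lie at chr1:100673384-100674622 (94.5% identical over 1247 aligned bases) and chr13:107692124-107693403 (96.0% identical over 1288). Sept7, with a transcript of 2398 bases, has a more distant partial copy on chromosome X (83.8% identical over 869 aligned bases). A part of the reads of Sept2 and Sept7 could therefore have been placed at more than 1 site.

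Among the 7 septins, Sept7 and Sept4 had the highest levels. Levels can be compared between genes only per length, and the normalized read count per kilobase of merged exons was used for this. On that scale Sept7 was highest at every age, with a mean ± SD (n = 3) of 4969 ± 587, 3951 ± 337, 4015 ± 38.5 and 4001 ± 184 in the order of age. Sept4 followed at 2991 ± 572, 3560 ± 94.2, 3047 ± 386 and 2602 ± 144. Sept9 was the lowest of the 7 at every age, between 72.9 ± 7.75 at P75 and 108 ± 2.84 at P18. The summed level of the 7 septins per kilobase was 11266 ± 1532 at P18 and 9497 ± 375 at P75, then 10498 ± 451 and 8971 ± 202 at the older ages.

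The shares of the 7 septins in this sum differed between ages. Sept7 made up 44.2% ± 1.21 (SD, n = 3) of the summed per-kilobase level at P18 and 41.6% ± 3.13 at P75, then 38.3% ± 1.75 and 44.6% ± 1.07 at the older ages. Sept4 made up 26.4% ± 1.62 at P18 and 37.5% ± 1.93 at P75, and stood at 29.0% ± 2.39 and 29.0% ± 1.27 at 6 and 24 months, and its 3 shares at P75 (36.1% to 39.7%) lay above those of all other ages (24.5% to 31.7%). The share of Sept5 was 13.7% ± 1.88, 8.46% ± 2.06, 19.3% ± 0.701 and 13.8% ± 1.09, the P75 shares being the lowest and the 6-month shares the highest of the 12 libraries. The share of Sept2 went from 6.78% ± 0.478 at P18 over 4.97% ± 0.260 to 3.77% ± 0.200 at 6 months and 3.93% ± 0.176 at 24 months. Sept8 held 5.24% to 6.45% at the 4 ages, Sept11 1.44% to 2.31% and Sept9 0.768% to 0.974%. Shares of a sum depend on each other, and no test was made of them. They also depend on the length used. With the longest transcript as length, Sept4 held 30.2%, 41.5%, 33.6% and 33.0% in the order of age. On that length Sept5 held 9.40%, 5.62%, 13.4% and 9.41%, again lowest at P75 and highest at 6 months. How reads in the exons that Sept5 shares with Gp1bb were counted is not given in the sources used here, and the per-kilobase level and share of Sept5 would be too low if such reads were left out or divided.

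**Figure D1:**
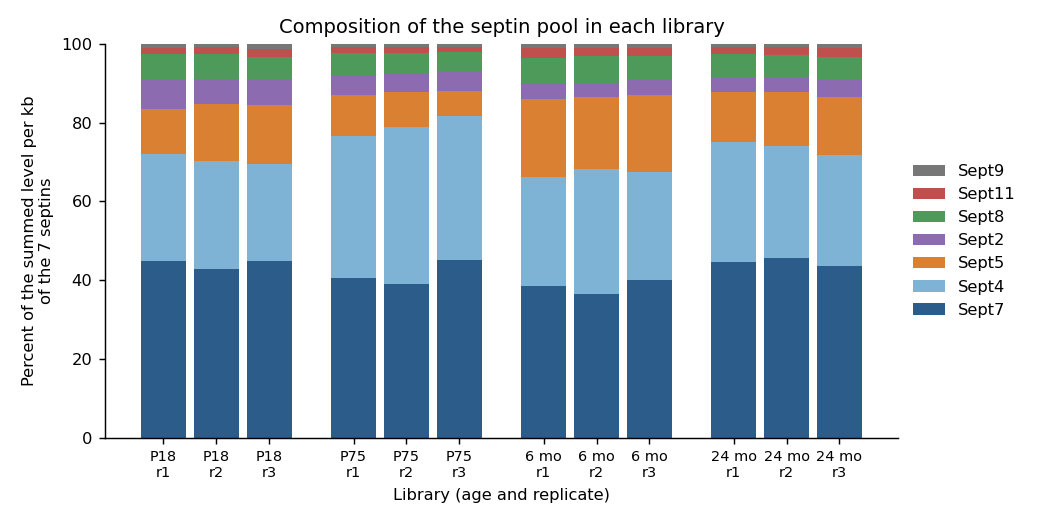
Stacked bars of the 7 septins in each of the 12 libraries (x axis: age and replicate), as percent of their summed normalized read count per kilobase of merged exons (y axis, 0 to 100). Sept7 and Sept4 make up most of every bar, the Sept4 part is widest at P75 and the Sept5 part is widest at 6 months (18.5% to 19.8%).

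To ask which of these genes changed with age, the log2 normalized read count was fitted across all 14634 genes with a mean of at least 10, and genes with an adjusted p below 0.1 (limma, Benjamini-Hochberg) were called changed. All 8 genes differed between the 4 ages in the F test of this fit, with adjusted p from 5.0e-07 (Sept2) to 0.048 (Anln), as did 83.8% of all genes tested. From P18 to P75, 7 of the 8 were called (48.8% of all genes tested), 6 being lower (22.9% of all genes) and 1 higher (25.9%) at P75. In the step to 6 months 5 were called (60.6% of all genes), 4 being higher (31.2%) and 1 lower (29.4%). In the last step, from 6 to 24 months, 4 were called (29.3% of all genes), of which 4 were lower (12.7%) and none higher (16.6%). Across the whole span from P18 to 24 months, 7 were called (69.0% of all genes), with 6 lower (34.3%) and 1 higher (34.7%). From P75 to 24 months 4 were called (54.9% of all genes), Sept5 and Sept11 being higher (28.8% of all genes) and Sept2 and Sept4 lower (26.1%). Of these, Sept11 was not called without P75 replicate 3 or 24 months replicate 3 (adjusted p = 0.109 and 0.137). With each library scaled to the same total or without 24 months replicate 2, 4 of the 8 were called from P18 to 24 months, and from 6 to 24 months 2 were called without any one of 4 libraries (6 months replicates 1 and 2, 24 months replicates 1 and 2). Scaling to the same total also moved the split of all genes called, from 3783 higher and 3354 lower to 4739 and 1827 from P18 to P75, and from 2435 and 1852 to 1394 and 1614 from 6 to 24 months, while 7 and 4 of the 8 genes were called there, the 7 with Sept4 as a gene called higher and without Sept7. Over the 3 consecutive steps the median log2 change of the 8 genes was -0.51, 0.29 and -0.25, while the median over all genes tested was 0.02, 0.01 and 0.03.

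**Figure D2:**
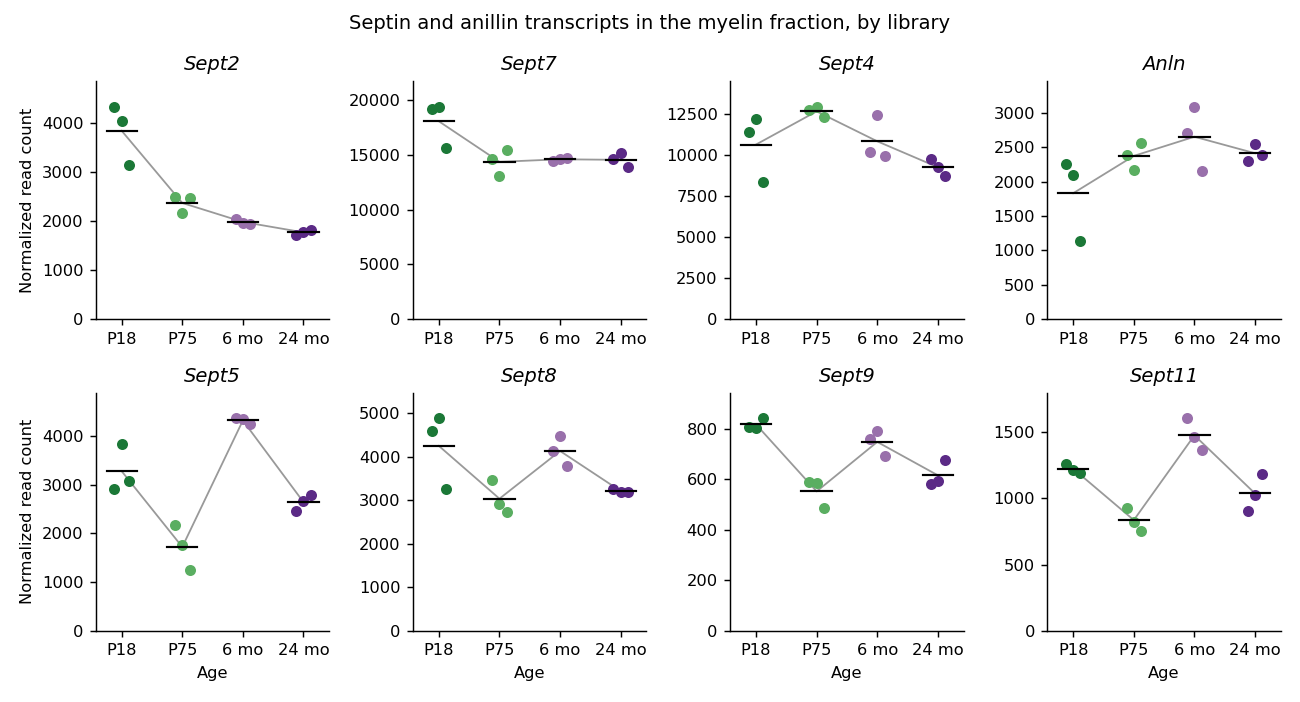
Normalized read count (y axis, from 0) of each gene in each library (points) at the 4 ages (x axis), with the mean of each age as a black bar and the means joined by a grey line. Sept2 steps down at every age, Sept7 drops once after P18, Sept4 and Anln are not lowered at P75, and Sept5, Sept8, Sept9 and Sept11 are low at P75, high at 6 months and lower again at 24 months.

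Sept2 (chr1:95375541-95406837, plus strand), which gives its name to a subgroup and is among the septins known in the myelin filaments, was lower at each later age. Its normalized read counts were 4337, 4051 and 3141 at P18, 2484, 2161 and 2465 at P75, 2051, 1966 and 1933 at 6 months, and 1724, 1771 and 1815 at 24 months. No library of any age overlapped with those of the next age, so that the order of the 4 ages was the order of their libraries. The log2 change was -0.69 ± 0.10 (SE) from P18 to P75 (adjusted p = 9.1e-05) and -0.25 ± 0.10 from P75 to 6 months (adjusted p = 0.049). The step from 6 to 24 months, -0.16 ± 0.10, was not called (adjusted p = 0.28). Over the whole span Sept2 was lowered to 0.465 of its P18 level (log2 change -1.10 ± 0.10, adjusted p = 1.35e-07), which was the strongest change of the 8 genes in that comparison. Leaving out any of 4 libraries (P75 replicates 1 or 3, 6 months replicates 2 or 3) took the adjusted p of the step from P75 to 6 months to 0.10 to 0.14.

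Sept7 (chr9:25056204-25116150, plus strand), the only member of its subgroup and a required part of most septin oligomers, changed once. Its counts were 19212, 19447 and 15632 at P18, 14641, 13054 and 15472 at P75, 14488, 14614 and 14768 at 6 months, and 14631, 15209 and 13874 at 24 months. The 3 P18 libraries lay above all 9 later ones, and the libraries of the 3 later ages overlapped. Sept7 fell from P18 to P75 by 0.33 ± 0.11 on the log2 scale (adjusted p = 0.0238). The changes of the 2 later steps were 0.03 ± 0.11 (adjusted p = 0.85) and -0.01 ± 0.11 (adjusted p = 0.98). The fall after P18 was not called when each library was scaled to the same total (-0.20, adjusted p = 0.19) or without P75 replicate 2 (-0.26, adjusted p = 0.11).

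Sept4 (chr11:87382405-87404041, plus strand) belongs to the Sept2 subgroup and is among the septins known in the myelin filaments. Its counts were 11430, 12200 and 8346 at P18, 12754, 12977 and 12317 at P75, 10185, 12438 and 9944 at 6 months, and 9790, 9261 and 8766 at 24 months. The P75 libraries were higher than those of P18 and did not overlap with them, with the lowest value of all 12 in P18 replicate 3. The log2 change from P18 to P75 was 0.27 ± 0.13 and missed the threshold (adjusted p = 0.107), with an adjusted p of 0.0115 when each library was scaled to the same total and 0.0745 with the replicate number as a block. With edgeR on the recovered reads it was not called (adjusted p = 0.157), and without P18 replicate 3 the change was 0.10 (adjusted p = 0.466). Sept4 then fell from P75 to 24 months by 0.45 ± 0.13 on the log2 scale (adjusted p = 0.00921), in 2 steps of -0.23 and -0.22 that were each not called (adjusted p = 0.14 and 0.24).

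Anln (chr9:22135658-22193650, minus strand) was the only one of the 8 called higher at P75 and at 24 months than at P18. Its counts were 2258, 2103 and 1136 at P18, 2393, 2173 and 2559 at P75, 2709, 3093 and 2159 at 6 months, and 2308, 2545 and 2388 at 24 months. P18 replicate 3 was far below the other libraries, and the remaining 11 lay between 2103 and 3093. The log2 change was 0.43 ± 0.19 from P18 to P75 (adjusted p = 0.0787) and 0.46 ± 0.19 from P18 to 24 months (adjusted p = 0.0448). Without P18 replicate 3 these changes were 0.12 (adjusted p = 0.44) and 0.15 (adjusted p = 0.29), so that neither was called without that library. The change from P18 to P75 was also not called without P75 replicate 1 or 3 (adjusted p = 0.147 and 0.199), without a filter on low values (0.108), with edgeR (0.127) or in a fit of only the 2 ages (0.132), and the change from P18 to 24 months was not called without 24 months replicate 2 (adjusted p = 0.116). The changes of the later steps, 0.15 ± 0.19 and -0.12 ± 0.19, were not called (adjusted p = 0.53 and 0.69).

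Sept5, Sept8, Sept9 and Sept11 went through the same sequence of steps: they fell in the step to P75, rose in the step to 6 months and fell in the step to 24 months, each step being called. This sequence was called for 5.29% of the 14634 genes tested and for 4 of the 8 genes here. It was picked after the values of these genes had been seen, so that the 2 figures side by side are not a test. It covers members of the Sept2 subgroup (Sept5), the Sept6 subgroup (Sept8 and Sept11) and the Sept3 subgroup (Sept9). All 4 genes kept the 3 directions under each of 23 other settings and left-out libraries, while the number called in every step ranged from 2 to 4, with Sept5 and Sept11 called in each.

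Sept5, first known from synaptic vesicles of neurons, made the largest moves. Its counts were 2909, 3843 and 3079 at P18, 2165, 1751 and 1248 at P75, 4365, 4345 and 4245 at 6 months, and 2468, 2661 and 2796 at 24 months. The libraries of no pair of ages overlapped, and the order from high to low was 6 months, P18, 24 months and P75. The log2 changes of the 3 steps were -0.95 ± 0.15 (adjusted p = 0.000118), 1.36 ± 0.15 (adjusted p = 2.59e-06) and -0.71 ± 0.15 (adjusted p = 0.00534). Gp1bb, with which Sept5 shares exonic sequence, had counts of 370 to 523 at P18 and 130 to 197 at P75, then 154 to 203 and 117 to 158 at the older ages, so that its libraries of P75 and 6 months overlapped while those of Sept5 did not.

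Sept11 (chr5:93522483-93605473, plus strand) followed with counts of 1262, 1217 and 1194 at P18, 931, 825 and 753 at P75, 1606, 1461 and 1362 at 6 months, and 905, 1025 and 1181 at 24 months. Its 6-month libraries were the highest, all P18 libraries lay above those of 24 months, and only those of 24 months and P75 overlapped. The log2 changes were -0.55 ± 0.10 (adjusted p = 0.000568), 0.82 ± 0.10 (adjusted p = 1e-05) and -0.51 ± 0.10 (adjusted p = 0.00449).

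Sept8 (chr11:53332759-53363067, plus strand), of the same subgroup as Sept11 and among the septins known in the myelin filaments, had counts of 4594, 4881 and 3260 at P18, 3452, 2910 and 2736 at P75, 4120, 4476 and 3787 at 6 months, and 3250, 3180 and 3194 at 24 months. P18 and P75 overlapped through P18 replicate 3, and P18 also overlapped with 6 months. The log2 changes were -0.47 ± 0.13 (adjusted p = 0.0079), 0.45 ± 0.13 (adjusted p = 0.0078) and -0.36 ± 0.13 (adjusted p = 0.0585). The last of these was not called without any single one of 5 of the 6 libraries involved (adjusted p = 0.11 to 0.19).

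Sept9 (chr11:117060975-117223639, plus strand), a part of the longer septin oligomers, was the least abundant of the 7 per kilobase. Its counts were 806, 803 and 842 at P18, 587, 584 and 484 at P75, 760, 793 and 691 at 6 months, and 580, 591 and 676 at 24 months. All P18 libraries lay above those of 6 months, all 6-month libraries above those of 24 months, and those of 24 months and P75 overlapped. The log2 changes were -0.57 ± 0.10 (adjusted p = 0.000244), 0.44 ± 0.10 (adjusted p = 0.00124) and -0.28 ± 0.10 (adjusted p = 0.0523), the last not being called without 6 months replicate 1 or 2 or without 24 months replicate 1 or 2 (adjusted p = 0.14 to 0.17).

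**Figure D3:**
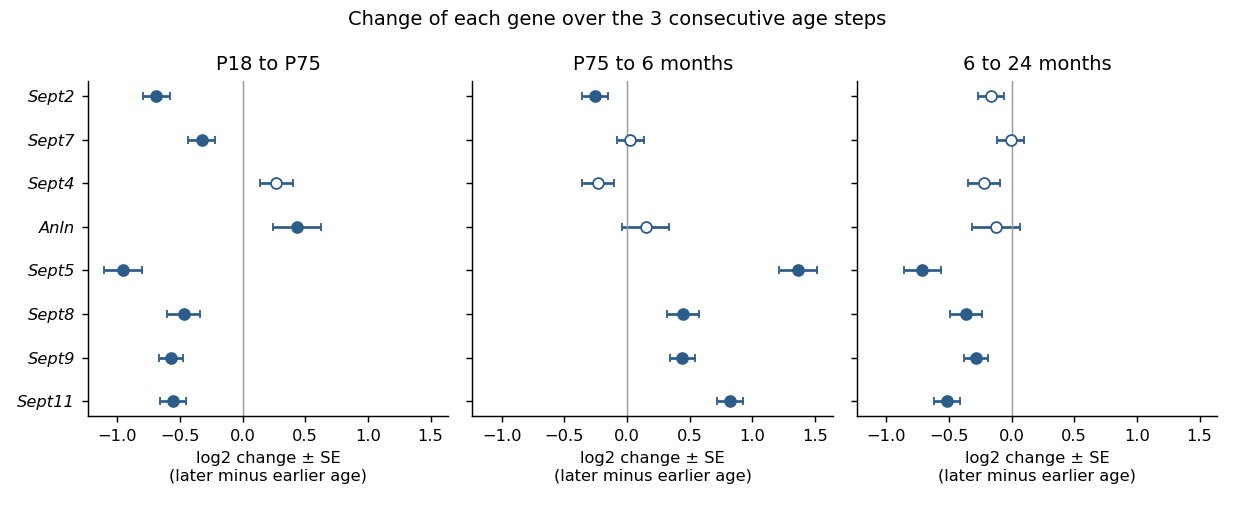
The log2 change of each gene (x axis, later minus earlier age, with its SE as a bar) over the 3 consecutive steps in age, 1 panel each. Filled points passed an adjusted p of 0.1 and open points did not. Sept5, Sept8, Sept9 and Sept11 lie left, right and left of 0, with the widest swing for Sept5 (-0.95, 1.36 and -0.71), while Sept7 leaves 0 in the first step only.

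The sequences before the transcription start of 3 of the genes that moved together are shown to see what they share, as the 250 bases before the RefSeq start site on GRCm38.p6. RefSeq promoters were matched for 7 of the 8 genes, some with several start sites, and for Sept8 and Sept9 the first start site is printed.
Sept8, chr11:53519486-53519735, plus strand: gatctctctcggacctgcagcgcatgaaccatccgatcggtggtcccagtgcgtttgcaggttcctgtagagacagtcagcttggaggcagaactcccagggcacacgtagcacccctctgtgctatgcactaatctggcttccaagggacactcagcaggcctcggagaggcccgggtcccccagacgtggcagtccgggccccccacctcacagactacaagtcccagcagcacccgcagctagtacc
Sept9, chr11:117199411-117199660, plus strand: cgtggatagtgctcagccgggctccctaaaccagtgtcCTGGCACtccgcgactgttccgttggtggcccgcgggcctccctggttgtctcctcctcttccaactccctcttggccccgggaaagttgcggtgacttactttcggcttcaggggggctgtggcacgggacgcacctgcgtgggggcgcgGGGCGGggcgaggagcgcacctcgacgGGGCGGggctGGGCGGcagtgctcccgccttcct
Sept11, chr5:93093166-93093415, plus strand: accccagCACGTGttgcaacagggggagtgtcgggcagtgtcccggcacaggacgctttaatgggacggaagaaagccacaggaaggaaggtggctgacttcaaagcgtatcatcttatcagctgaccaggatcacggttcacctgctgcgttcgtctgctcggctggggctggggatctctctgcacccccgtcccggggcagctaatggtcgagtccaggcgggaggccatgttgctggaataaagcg
Capitals mark matches on either strand to 6 motifs, none of which overlapped another in these sequences. The motifs were the core ACAAAG bound by SOX proteins, the sequence CTGGCAC bound by MYRF, the box written CCAAT, the GC box written as GGGCGG, the E-box in its form CACGTG and the TATA box read as TATAAA. The Sept8 window held none of them, that of Sept9 held 1 MYRF sequence and 3 GC boxes, and that of Sept11 held 1 E-box, so that no motif was common to the 3 windows printed. The second start site of Sept8 held 2 GC boxes. Of all 32851 promoters of this length, 16.5% held the SOX core, 4.19% the MYRF sequence, 33.8% the CCAAT box, 32.7% the GC box, 6.02% the E-box and 12.4% the TATA box. A match of letters is a description and not evidence of binding.

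The libraries were compared with their own myelin protein genes, since these genes changed strongly over the same ages. Of 9 structural myelin protein genes, 8 fell from P18 to P75 (median log2 change -1.13), as did 22.9% of all genes tested. Among the 8 were Cnp (-1.71) and Mog (-1.11), which encode proteins of non-compact myelin and of the outer surface of the sheath. Within each library, the log2 level of each of the 8 genes minus the mean log2 level of the 9 myelin genes was taken, a difference that does not depend on the size factors and that was chosen after the values had been seen. Since 8 of the 9 myelin genes fell from P18 to P75, a gene with no change of its own also steps up there. The log2 change of the gene itself in that step was 0.43 for Anln and 0.27 for Sept4 (0.12 and 0.10 without P18 replicate 3). For Sept7 and Sept8 it was -0.33 and -0.47. For Anln the difference from the myelin genes was -4.37 ± 0.19 (SD, n = 3) at P18, and -2.84 ± 0.07, -2.88 ± 0.11 and -2.76 ± 0.10 at the 3 later ages. The P18 libraries (-4.55 to -4.17) lay below all 9 later ones, P18 replicate 3 included. For Sept4 the difference was -1.79 ± 0.10, -0.42 ± 0.10, -0.84 ± 0.04 and -0.82 ± 0.04, and the 3 P18 values again lay below all others. For Sept7 it was -1.01 ± 0.22, -0.24 ± 0.07, -0.40 ± 0.20 and -0.16 ± 0.06, and for Sept8 -3.12 ± 0.08, -2.49 ± 0.16, -2.23 ± 0.08 and -2.34 ± 0.03, with P18 lowest in both. For Sept2 it was -3.25 ± 0.18 at P18, and -2.84 ± 0.04, -3.28 ± 0.20 and -3.20 ± 0.08 at the later ages. The P75 libraries of Sept2 (-2.89 to -2.81) lay above those of P18 (-3.45 to -3.09). This step did not last, since the libraries of 6 and 24 months overlapped with those of P18. In Sept5, Sept9 and Sept11 the P18 libraries (-3.80 to -3.11, -5.78 to -4.98 and -5.18 to -4.48) overlapped with those of P75 (-3.79 to -3.03, -5.15 to -4.77 and -4.52 to -4.24) and lay below those of 6 and 24 months. In a bulk fraction, fewer cells or membranes of a kind and less RNA in each cannot be told apart.

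**Figure D4:**
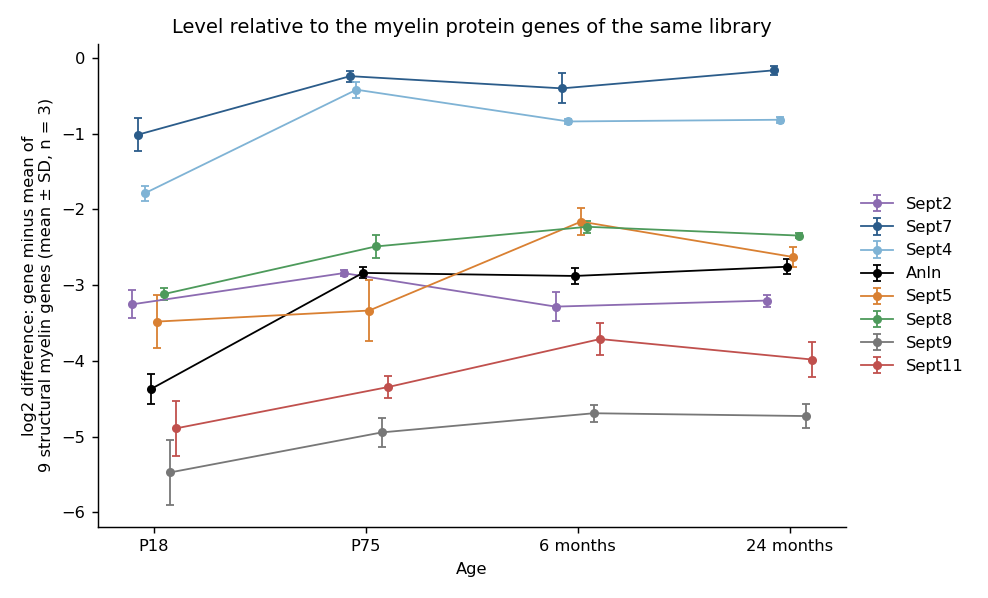
The log2 level of each gene minus the mean log2 level of 9 structural myelin protein genes of the same library (y axis, mean ± SD, n = 3) against age (x axis). Anln and Sept4 step up between P18 and P75 by the widest margins, from -4.37 to -2.84 and from -1.79 to -0.42, and Sept2 is at about the same difference at P18, 6 months and 24 months. A gene with no change of its own also steps up between P18 and P75, since 8 of the 9 myelin genes fell there. Heights of different genes are not corrected for length, so that the steps of a line are to be compared and not its height.

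The libraries of 1 age also differed among themselves, and the 8 genes did not all follow the same companions in this. The deviation of each library from the mean of its age was taken for each gene on the log2 scale. Over the 12 libraries the deviations of Anln and of Sept4 had a Pearson correlation of 0.94 and 0.95 with those of the mean of the 9 myelin genes, and 0.84 for both over the 9 libraries without P18. For Sept8, Sept2 and Sept7 it was 0.90, 0.79 and 0.77 with the same mean, and 0.65, 0.27 and 0.29 without P18. Those of Sept9 and Sept11 had a correlation of 0.79 and 0.67 with Nefl, the light chain of the neurofilaments of axons, and 0.86 and 0.91 without P18, while their correlation with the myelin genes was -0.05 and 0.08. With Nefm, another neurofilament gene, it was 0.44 and 0.40. With the mean of 10 neuronal markers it was 0.61 and 0.27 (0.78 and 0.60 without P18). The deviations of Sept11 had a higher correlation with Gpr17, a marker of oligodendrocyte precursors (0.81), than with Nefl. The companions given here were chosen after their values had been seen. The deviations of Sept7 ran against the mean of 10 neuronal markers (-0.96, and -0.92 without P18). So did those of Sept2, Anln, Sept4 and Sept8 over the 12 libraries (-0.82, -0.75, -0.65 and -0.60). Without P18 these correlations were -0.42, -0.18, -0.05 and 0.11. The deviations of Sept5 correlated best among the septins compared with those of Sept3 (0.87, and 0.96 without P18), a septin known from neurons. With the mean of 10 neuronal markers those of Sept5 had a correlation of 0.18 (0.50 without P18). With Nefl, Nefm and the mean of the 9 myelin genes it was 0.38, 0.04 and 0.19 (0.56, 0.06 and 0.01 without P18). The libraries of 1 age share their age mean, and all values of a library share its preparation and size factor, so that these correlations are descriptions. P18 replicate 3 stood apart, with a median deviation of -0.24 for the 8 genes, -0.41 for the myelin genes and 0.20 for the neuronal markers.

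**Figure D5:**
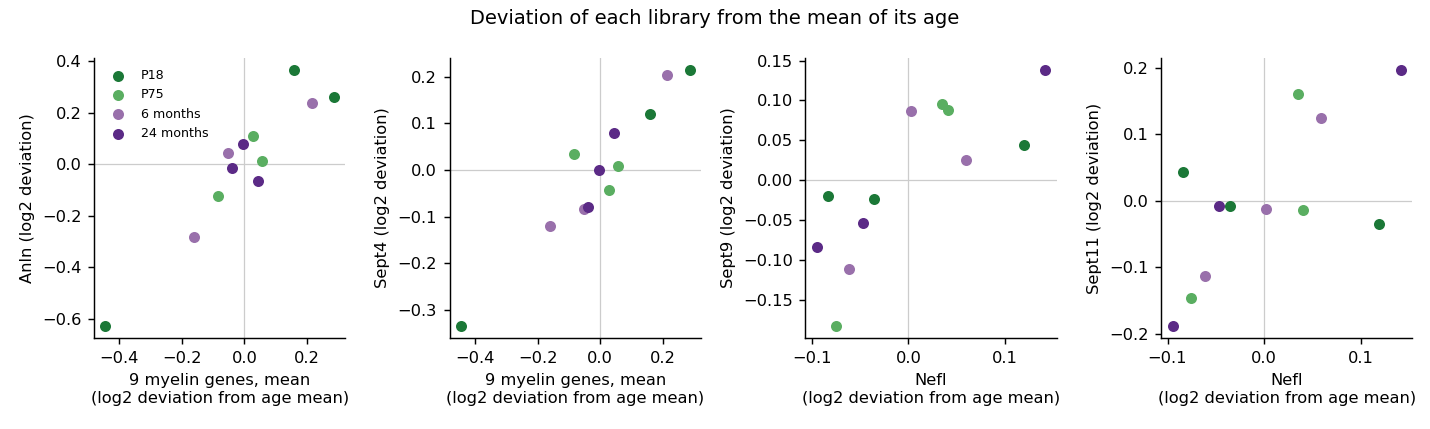
Each point is a library, plotted by its log2 deviation from the mean of its age. Anln and Sept4 (y axes) are plotted against the mean of 9 structural myelin genes (x axes), and Sept9 and Sept11 against Nefl. The point at the lower left of the Anln and Sept4 panels is P18 replicate 3, and the correlations over the 12 points are 0.94, 0.95, 0.79 and 0.67. With the mean of 10 neuronal markers those of Sept9 and Sept11 are 0.61 and 0.27.

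Markers of other cells moved with some of these steps. Nefl and Nefm, both neurofilament genes, were called in the same sequence of fall, rise and fall as Sept5, Sept8, Sept9 and Sept11, and so were Gpr17 and Enpp6, which mark committed precursors and newly formed oligodendrocytes. The precursor markers Pdgfra, Cspg4 and Vcan were not called from P18 to P75 (adjusted p = 0.776, 0.229 and 0.434). Cspg4 and Vcan were also not called from P75 to 6 months (adjusted p = 0.829 and 0.595). The 10 neuronal markers did not move as a group. From P75 to 6 months 6 rose and 3 fell (31.2% and 29.4% of all genes tested). The vesicle protein genes Syt1 and Snap25 changed by 2.34 and -0.68 on the log2 scale in this step. The labels name no batch of preparation or sequencing, so that age and a batch shared by the libraries of an age, in this step as in the others, cannot be told apart. The summed normalized read count of the 10 neuronal markers was 181498 to 222348 at P18 and 210277 to 241561 at P75, then 202141 to 209564 and 192196 to 202650 at the older ages, and none of them was at 0. Snap25 was the largest part of this sum, with means of 109014, 141430, 88328 and 91614 in the order of age. Microglial markers rose from P18 to 24 months in 7 of 8 genes, while 34.7% of all genes tested were called higher. The summed level of the microglial markers was 4084 to 4602 at P18 and 8858 to 10957 at 24 months. The part of any of these markers in the changes of the septins was not tested.

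Of the 6 other septin genes, Sept12 and Sept14 were listed at 0 in all 12 libraries and Sept1 and Sept10 were low, at 25 to 60 and 91 to 177. Sept3 and Sept6 were the exceptions and went through the sequence of fall, rise and fall. Sept3 had means of 5817 ± 395, 4147 ± 663, 5319 ± 151 and 4055 ± 73.6 (SD, n = 3) in the order of age, and per kilobase it lay between 816 and 1170, above Sept2 at every age. Sept6 had means of 1310 ± 101, 1157 ± 20.8, 1919 ± 107 and 1336 ± 75.3, and its log2 changes were -0.18 (adjusted p = 0.0956), 0.73 (adjusted p = 3.24e-06) and -0.52 (adjusted p = 0.0011). Neither Sept1 nor Sept10 was called in any of the 5 comparisons.

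Cdc42 is a small GTPase whose effectors, the Borg proteins encoded by Cdc42ep1 to Cdc42ep5, bind septins and organise their filaments. From P18 to 24 months 5 of these 6 genes fell and none rose, with a median log2 change of -0.60. Of all genes tested, 34.3% were called lower and 34.7% higher over this span. Cdc42 itself had means of 9474 ± 99.9, 6273 ± 138, 6302 ± 91.7 and 5876 ± 132 in the order of age, and its fall was called from P18 to P75 (-0.59, adjusted p = 2.03e-05) and not in the later steps, as with Sept7. Cdc42ep2 fell from P18 to P75 by 0.95 on the log2 scale (adjusted p = 3.38e-05). Cdc42ep1, Cdc42ep2 and Cdc42ep4 fell from 6 to 24 months (-0.36, -0.37 and -0.34, adjusted p = 0.0371, 0.0535 and 0.0131). None of the 6 rose from P75 to 6 months (31.2% of all genes tested did), where Sept5, Sept8, Sept9 and Sept11 did. Cdc42ep3 and Cdc42ep5 fell in that step (-0.78 and -0.87, adjusted p = 0.000158 and 0.0387), as did 29.4% of all genes tested.

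Anillin is best known from cell division, and 12 genes of cytokinesis and proliferation were examined beside it, of which 11 passed the filter on low counts. From P18 to 24 months 5 fell, 2 rose and 4 were not called. Of all genes tested, 69.0% were called over this span, 34.3% lower and 34.7% higher. Mki67 and Top2a, both expressed in cycling cells, fell by 2.85 and 3.07 on the log2 scale (adjusted p = 2.22e-08 and 8.66e-08), from means of 87.9 ± 15.6 and 84.0 ± 19.4 to 11.2 ± 1.29 and 9.23 ± 3.29. Ect2, the exchange factor that activates Rhoa in the contractile ring, fell by 1.30 (adjusted p = 0.000361) and Rhoa itself by 0.69 (adjusted p = 6.8e-06). The non-muscle myosin heavy chains Myh9 and Myh10 rose by 0.50 and 0.54 (adjusted p = 0.000686 and 7.05e-05). Anln, with a log2 change of 0.46 over this span and of 0.15 without P18 replicate 3, was not among the genes that fell.

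The genes with the most similar course over the 12 libraries were sought among the 11305 with a mean of at least 100, by the Pearson correlation of log2 values, as a description. Anln was closest to Gatm (0.95), Etv1 (0.94) and Rassf4 (0.94). Sept2 was closest to Plekha1, Ccny and Secisbp2l (0.99 each), Sept7 to Idi1, Fam164a and Eif3j (0.95 each), and Sept4 to Nudt4 (0.94), Hadhb (0.92) and Nmral1 (0.91). Sept5 was closest to Mark4 (0.99), Rnf157 (0.99) and Ppp1r9b (0.98), Sept11 to Gnaz (0.98), Prdm2 (0.97) and Tspyl3 (0.97), and Sept9 to 1810041L15Rik, Ppp2r5d and Add1 (0.97 each). Sept8 was closest to Ahcyl1 (0.94), Tatdn2 (0.93) and Tppp (0.93), the last encoding a microtubule protein of oligodendrocytes. No gene was named for more than 1 member. Among the members themselves the closest pair was Sept5 and Sept11 (0.94).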

How the data were processed

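RNA was sequenced from 12 libraries of the myelin-enriched fraction, 3 per age, each labelled as a separate replicate. The labels do not say that every replicate came from a separate mouse, so that p-values measure the spread between these libraries. Reads were placed on mm9 by the authors using TopHat (TopHat2 2.0.8 in the submitters' processing notes, which also name SAMtools 0.1.19 and HTSeq 0.5.4p1). The authors counted them with HTSeq and deposited normalized read counts, that is counts divided by DESeq size factors (a signal per gene). The annotation, strandedness and treatment of multiply placed reads are not given in the sources used here. The deposited values were whole multiples, within 0.006, of the value of 1 read (0.812 to 1.188 per library) in at least 99.99% of cases, and corresponded to 20299052 to 27214385 reads on genes per library.

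Values were transformed as log2(value + 1), which understates changes of low genes. Genes with a mean of at least 10 (14634) were fitted over all 12 libraries with limma 3.58.1 (trended empirical Bayes), with age as the only term, in R 4.3.3, and p-values were adjusted by Benjamini-Hochberg, with a false discovery rate of 0.1 after the study's methods. The limma, edgeR and DESeq2 fits were each tested on simulated data, for the step from P18 to P75 only. The planted changes were larger than those of the 8 genes. The F test and the other settings were not tested in this way. The genes described were the 8 members, genes of the listed groups and, for each member, the 3 genes of most similar course among those with a mean of at least 100. Members and lists were chosen with earlier results of these data known. Lengths and positions came from GENCODE M1 on NCBIM37, which is the mm9 assembly. Copies were sought with minimap2 2.31-r1302. The alternatives were other pseudocounts, filters and scalings, a replicate block, edgeR 4.0.16 and DESeq2 1.42.0 on the recovered reads, and each library left out.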

Additional observations from a re-analysis of the deposited data

How the results depend on the processing

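The number of the 8 genes called was within 1.5 times its value under other pseudocounts, filters, scalings and tools, with these exceptions. From 6 to 24 months it was 2 in place of 4 at a false discovery rate of 0.05, and 2 to 5 with 1 library left out. From P18 to 24 months it was 4 in place of 7 with each library scaled to the same total, and 4 to 7 with 1 library left out. In a fit with a replicate block the counts were 8, 5, 4, 7 and 4 against 7, 5, 4, 7 and 4, in the order P18 to P75, P75 to 6 months, 6 to 24 months, P18 to 24 months and P75 to 24 months, and Sept4 was added from P18 to P75. Deviations of same-numbered libraries had correlations of -0.213 to 0.187 over all pairs of ages. The 3 pairs of P75 and 6 months were each over 0.1 (0.161, 0.101 and 0.187), and there the replicate block gave the same 5 called genes, while in no other pair of ages were all 3 over 0.1. On the recovered whole reads edgeR called 7080, 8948, 4585, 10089 and 8002 of the 14634 genes in the same order of comparisons, against 7137, 8865, 4287, 10092 and 8032. The sequence of fall, rise and fall, an alternative set examined after seeing the data, was called for 2 genes at a false discovery rate of 0.05.

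Changes near 0 turned sign. For Sept7 the change from P75 to 6 months ran from -0.0416 to 0.081 with 1 library left out. Its change from 6 to 24 months was 0.0099 with edgeR, 0.0026 with DESeq2 and -0.0375 to 0.0288 with 1 library left out, and its change from P75 to 24 months was -0.0285 with the same total and -0.0477 to 0.0749 with 1 library left out. For Anln from P75 to 24 months the change was -0.0239 with the same total, -0.0156 with quantile normalization and -0.0371 to 0.0808 with 1 library left out. No called change turned sign. The same total moved the median of all genes from 0.02 to 0.14 from P18 to P75, and quantile normalization moved it from -0.01 to -0.12 from P18 to 24 months, so that changes of that size depend on the scaling. With the longest transcript as length, the Sept7 share was 46.0% at P18, 40.5% at 6 months and 46.2% at 24 months. The shares of Sept4 and Sept5 moved by more than their SD with this length, to 41.5% and 5.62% at P75.

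The causes of these differences were not tested. At least 438 reads lay behind each value of the 8 genes, and 3 libraries per age limit the precision of the spread.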
